A study of Mus musculus with 3 samples.

Results

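Delivery of adipose-derived stem cells (ADSC, mesenchymal cells grown from fat) into both ovaries was compared with delivery into a vein in mouse ovaries after chemotherapy. The comparison used 2 of the 3 arrays of the study. Each gene's value was its log2 ratio of treated over WT ovary on the array of the directly injected animals (ADSC-ovary), minus the same ratio on the array of the intravenously injected animals (ADSC-iv). A positive difference thus means a higher ratio in ADSC-ovary. The remaining array (POF) held ovaries after chemotherapy without cells and is given for orientation. A value was obtained for 10534 of the 19459 named genes on the array, those whose treated signal stood above the local background on at least 1 of the 2 arrays.

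ADSC-ovary and ADSC-iv animals were C57BL/6 mice with premature ovarian failure (POF) brought on by cyclophosphamide, an alkylating drug that damages dividing cells and ovarian follicles. POF animals had the same drug and no cells, and WT animals were untreated C57BL/6 mice. Both ADSC groups therefore carried the chemotherapy. Ovaries were taken 1 week after treatment. Per the labels, treated RNA was in Cy5 and WT RNA in Cy3 on every array, so a dye effect that belongs to a gene cancels in the difference between arrays. The labels give neither the number of animals per array, nor their age, nor the donor of the cells, nor whether WT RNA came from 1 pool. With 1 array per group there is no replicate, no test was made between groups, and the array and the route of delivery cannot be told apart.

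An ovary holds oocytes enclosed by granulosa cells, an outer layer of theca cells that makes androgens, steroid-producing luteal and interstitial cells, vessels, smooth muscle and resident macrophages. Interferon gamma, a cytokine of T and natural killer cells, induces the chemokines Cxcl9 and Cxcl11, the guanylate-binding and immunity-related GTPases, and MHC class II antigen presentation. Oocyte growth rests on signals passed in both directions between the oocyte and its granulosa cells, among them Kit ligand from the granulosa cells and Gdf9 from the oocyte.

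A ratio at least 2-fold higher in ADSC-ovary than in ADSC-iv was found for 81 of the 10534 genes (0.769%), and one at least 2-fold lower for 46 (0.437%). At 1.5-fold the shares were 3.46% higher and 3.37% lower. Among the 9206 genes with Cy5 above background on both arrays, 0.63% were at least 2-fold higher and 2.73% at least 1.5-fold lower. The median difference of all genes was 0.00, with 50.1% of genes above 0. Marker genes of the ovary were above background in treated and WT RNA on both arrays, among them the zona pellucida gene Zp3, the inhibin gene Inha and the steroid 17-hydroxylase gene Cyp17a1. Control spots gave mean differences of 0.10 (actin), 0.23 (Gapd), -0.14 (Ldha) and -0.28 (Rpl5) over 48 spots each, with SDs of 0.15 to 0.18 between spots. Probes of the same gene differed with a median SD of 0.20 over 2467 genes, and the medians of the 48 print blocks ranged from -0.19 to 0.13. None of the 768 blank spots was above background in Cy5 on either array.

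The WT channel gave a direct check of the comparison, since WT RNA was on both arrays. Over the 8283 genes with all 4 channels above background, the SD of the WT (Cy3) difference, ADSC-ovary minus ADSC-iv array, was 0.25 log2 units. The treated (Cy5) signal differed with an SD of 0.37, and the difference of ratios had an SD of 0.30. In WT RNA 10 of them reached 2-fold upward on the ADSC-ovary array and 7 downward, against 51 and 52 in treated RNA and 40 and 25 in the difference of ratios. A difference counted as carried by Cy5 when the treated signal moved the same way by at least 50% of it. That was so for 74 of the 81 higher genes and for all 46 lower genes. WT itself differed 2-fold for 4 of the higher genes and 1 of the lower genes, and 30 and 16 had no WT signal above background on either array. For any gene whose WT signal was above background on neither array, among them Ifng, Cxcl11, Ccl3, Xcl1, Gbp2b, Gbp5, Klrk1, S100a9, Mpo, Chil3, Il1b, Il1rn, Il18bp, Cfd, Ptges, Tnni2, Rspo2, Oosp3 and Arhgef2, a ratio to WT depends on how the background was corrected. With plain background subtraction the differences became larger in size, 3.13 for Gbp2b, 1.98 for Gbp5, 2.32 for Klrk1, 2.46 for S100a9, -1.88 for Ptges, -1.53 for Tnni2 and -1.22 for Rspo2. Cxcl11 and Mpo had no value there.

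**Figure D1:**
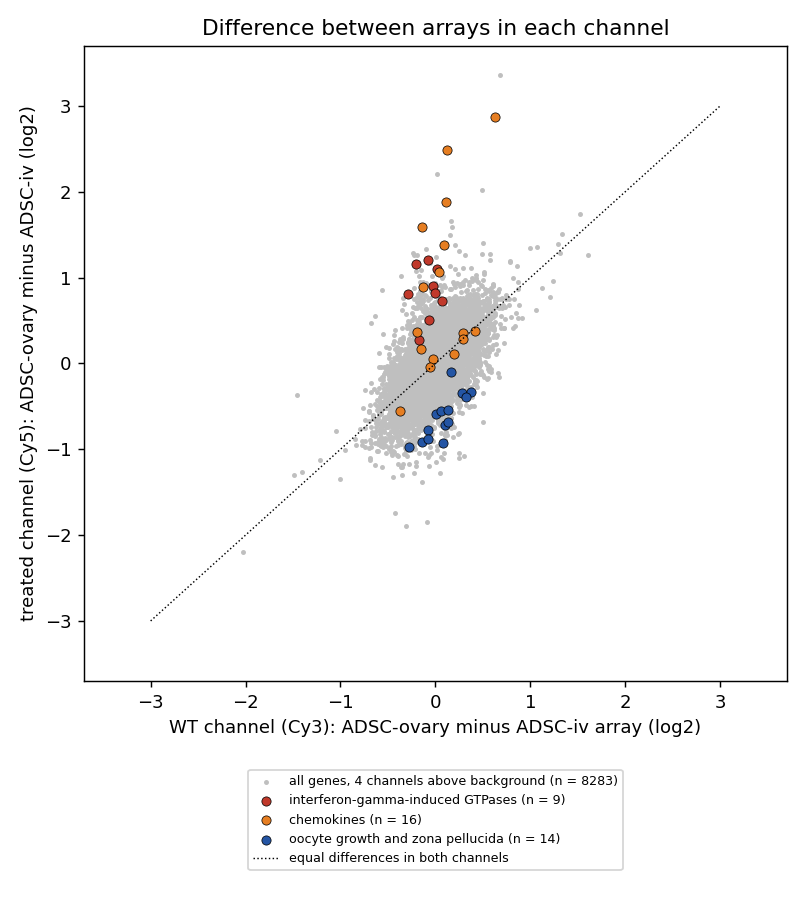
Difference between the ADSC-ovary and ADSC-iv arrays in the treated channel (Cy5, vertical axis, log2) against that in the WT channel (Cy3, horizontal axis, log2). Each point is 1 gene, with genes above background in all 4 channels in grey (n = 8283) and members of 3 lists with Cy5 above background on both arrays in colour. The GTPases and the leading chemokines lie above the dotted line of equal differences, and all 14 oocyte genes lie below it.

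Genes induced by interferon gamma were among the highest differences. Ubd, a ubiquitin-like protein induced by interferon gamma, had the highest difference of all measured genes and was chosen after its value was seen. Its ratio to WT was 2.30 (log2) in ADSC-ovary, -0.39 in ADSC-iv and 0.08 in POF, a difference of 2.69. The treated signal of Ubd differed by 3.37 and the WT signal by 0.68. Ifng, which encodes interferon gamma itself, had a ratio of 1.72 in ADSC-ovary, -0.35 in ADSC-iv and -0.11 in POF. Its treated signal was above background in ADSC-ovary and not above it in ADSC-iv, 4.31-fold higher by Cy5. WT was above background on neither array, and its dim levels differed by 0.04.

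The chemokines that attract T cells and monocytes stood highest among the ligands. Cxcl11 had a ratio of 3.08 in ADSC-ovary, 0.72 in ADSC-iv and -0.10 in POF, over a WT spot that was not above background on the ADSC-ovary or the ADSC-iv array. Cxcl9 had 4.54 in ADSC-ovary, 2.30 in ADSC-iv and 1.68 in POF. Both bind the receptor Cxcr3 of activated T and natural killer cells, and for Cxcl9 the ADSC-ovary array was the highest of the 3. The differences were 2.36 for Cxcl11, whose background-subtracted Cy5 signal was 799 scanner units in ADSC-ovary against 47 in ADSC-iv, and 2.24 for Cxcl9, whose signal was 11422.5 units in ADSC-ovary against 1477.5 in ADSC-iv. The WT signal of Cxcl9 also differed, by 0.63, on a dim spot. Ccl2, a monocyte attractant, had a ratio of 2.23 in ADSC-ovary, 0.46 in ADSC-iv and 0.80 in POF. Ccl5, made by activated T cells, had 2.65 in ADSC-ovary, 0.92 in ADSC-iv and 0.29 in POF. In these 2 genes ADSC-iv lay much closer to POF than to ADSC-ovary, with differences of 1.77 for Ccl2 and 1.72 for Ccl5.

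Of 36 chemokine genes listed, 30 were on the array and 22 were measured, 16 of them with Cy5 above background on both arrays. At least 2-fold higher in ADSC-ovary were 8 of the 22 (0.769% of all genes), 7 of them among the 16 (0.63% of all such genes), and none was 2-fold lower. Besides the 4 above these were Ccl8 (1.28), Xcl1 (1.07), Ccl12 (1.02) and Ccl3 (1.02). The median over the 22 was 0.40, with 17 above 0. It was 0.065 when only spots with a flag of 100, a mark whose meaning the files do not state, were used. The homeostatic chemokines showed small differences: Cxcl12, the stromal ligand of Cxcr4, differed by 0.32, Cxcl13 by 0.15 and Ccl21b by -0.18. All 8 measured chemokine receptor genes were above 0, with a median of 0.46 that was 0.08 with no filter on dim probes. The monocyte receptor Ccr2 had a ratio of 2.44 in ADSC-ovary, 1.86 in ADSC-iv and 1.52 in POF.

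The interferon-gamma-induced GTPases, which act against intracellular microbes, had the highest median of the 45 lists with at least 5 measured genes, 0.87 against 0.00 for all genes. Under 10 of the 12 alternatives they stayed highest, and with plain background subtraction (1.02) and with Cy5 alone (0.81) the neutrophil list was higher (1.21 and 0.86). Of 17 listed genes 10 were on the array, all of these were measured and above 0, and 4 were at least 2-fold higher (0.769% of all genes), each with Cy5 above background on both arrays. Gbp2 had a ratio of 2.64 in ADSC-ovary, 1.28 in ADSC-iv and 1.14 in POF, a difference of 1.36. Gbp5 had 1.45 in ADSC-ovary, 0.17 in ADSC-iv and 0.46 in POF, a difference of 1.28. Irgm2 had 2.64 in ADSC-ovary, 1.54 in ADSC-iv and 2.02 in POF, a difference of 1.10 shared in sign by its 3 probes. The list's median ratio to WT was 2.28 in ADSC-ovary, 1.26 in ADSC-iv and 1.21 in POF, so these genes were above WT on all 3 arrays. Gbp6 (1.08), Irgm1 (0.93), Iigp1 (0.82), Gbp3 (0.66), Tgtp1 (0.57), Ifi47 (0.45) and Gvin1 (0.09) completed the list. Gbp2b, a further guanylate-binding protein outside the list, differed by 1.46, over WT spots not above background on either array. Near-identical copies within the GTPase families may share a probe.

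Promoters of 4 genes named above are shown because the genes were higher in ADSC-ovary and because interferons are known to act through short motifs near the start of such genes. The sequences are from RefSeq (GRCm38.p6), from 250 bases before to 50 after the annotated start, on the strand of the gene. Capitals mark matches on either strand to TTCNNNGAA, the gamma activation site, and GAAANNGAA, the core of the interferon-stimulated response element.
Gbp2, chr3:142620413-142620712, plus strand: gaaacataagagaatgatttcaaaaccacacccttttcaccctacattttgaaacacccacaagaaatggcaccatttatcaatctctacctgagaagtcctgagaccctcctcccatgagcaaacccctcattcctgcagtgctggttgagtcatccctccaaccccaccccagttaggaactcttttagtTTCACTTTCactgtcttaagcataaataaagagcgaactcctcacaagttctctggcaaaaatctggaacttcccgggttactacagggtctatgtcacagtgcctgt
Gbp5, chr3:142496684-142496983, plus strand: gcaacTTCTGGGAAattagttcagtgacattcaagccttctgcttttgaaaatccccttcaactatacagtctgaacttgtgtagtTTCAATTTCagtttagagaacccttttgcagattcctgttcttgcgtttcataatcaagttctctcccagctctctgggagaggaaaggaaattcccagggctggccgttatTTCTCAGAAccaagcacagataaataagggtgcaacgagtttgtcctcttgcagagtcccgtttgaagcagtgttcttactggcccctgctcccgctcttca
Irgm2, chr11:58214727-58215026, plus strand: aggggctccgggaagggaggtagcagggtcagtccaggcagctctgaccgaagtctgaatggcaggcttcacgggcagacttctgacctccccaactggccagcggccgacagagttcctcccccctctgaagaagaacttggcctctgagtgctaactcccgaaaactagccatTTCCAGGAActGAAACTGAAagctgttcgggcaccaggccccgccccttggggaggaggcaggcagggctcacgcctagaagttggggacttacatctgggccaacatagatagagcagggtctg
Cxcl9, chr5:92328030-92328329, minus strand: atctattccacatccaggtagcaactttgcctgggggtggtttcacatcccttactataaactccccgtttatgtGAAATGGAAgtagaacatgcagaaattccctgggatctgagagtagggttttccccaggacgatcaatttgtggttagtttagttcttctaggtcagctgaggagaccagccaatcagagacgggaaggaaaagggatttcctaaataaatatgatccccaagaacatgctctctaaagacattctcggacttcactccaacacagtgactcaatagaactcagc
Gbp2 and Cxcl9 held 1 response element core each, Gbp5 held 2 activation sites and 1 core, and Irgm2 held 1 of each, 2 bases apart and not overlapping. Of all 32851 promoter windows of this length, 8.56% held the core and 8.30% the activation site. Windows were found for 7 of the 10 GTPase genes, and of their 8 windows 6 held the core (75.0%) and 3 the activation site (37.5%). Of 18 windows of 17 chemokine genes, 4 held the core (22.2%) and 2 the activation site (11.1%). Of 9 windows of 7 MHC class II presentation genes, 1 held the core (11.1%) and 1 the activation site (11.1%), near the shares of all windows. A match describes the letters only and is no evidence of binding in these ovaries.

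Wider interferon-stimulated genes differed less. The median over 36 measured members was 0.23, of which 28 were positive. Cxcl9 and Ifi205 were the 2 members past 2-fold (0.769% of all genes). Ifi205 had a ratio of 2.38 in ADSC-ovary, 1.12 in ADSC-iv and 0.87 in POF. Antiviral members had both signs, with 0.53 for Rsad2, 0.48 for Ifi44, 0.34 for Usp18, -0.27 for the RNA sensor gene Ifih1 and -0.32 for Ifitm1. The transcription factor Irf1, induced early by interferon gamma, differed by 0.62 and Irf8 by 0.75. Cd274, which encodes the inhibitory ligand PD-L1 and was chosen after its value was seen, had a ratio of 2.17 in ADSC-ovary, 0.67 in ADSC-iv and 0.73 in POF.

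Antigen presentation genes were higher in ADSC-ovary, and those of MHC class II more so than those of class I. The 2 probes named for H2-Ea, a class II chain, had a mean ratio of 3.98 in ADSC-ovary, 2.22 in ADSC-iv and 2.40 in POF. Whether these probes read RNA of this gene in these mice was not tested, so the values belong to the probes. H2-DMa, which helps load peptides onto class II, had 2.70 in ADSC-ovary, 1.29 in ADSC-iv and 1.74 in POF. Cd74, the invariant chain, had 2.61 in ADSC-ovary, 1.81 in ADSC-iv and 1.51 in POF. ADSC-ovary was the highest array for the H2-Ea probes, for H2-DMa and for Cd74. The class II median was 0.56 over 10 measured genes with 9 above 0, the exception being H2-Eb1 (-0.28), and its regulator Ciita differed by 0.53 with a WT difference of -0.32. The class I list had a median of 0.25 over 19 genes with none at 2-fold. The immunoproteasome subunit Psmb8 differed by 0.63, Psmb9 by 0.60 and the peptide transporter gene Tap1 by -0.18. B2m differed by 0.66, with a treated difference of 0.29 and a WT one of -0.37.

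Cytokines and their receptors had a median of 0.42 over the 15 of 19 measured genes with Cy5 above background on both arrays, 14 of them above 0. At least 2-fold higher among the 15 were Il1b and Il18bp, against 0.63% of all such genes. Ifng and Il1rn were measured through ADSC-ovary alone. Il1b, the inflammatory cytokine, had a ratio of 2.12 in ADSC-ovary, 1.11 in ADSC-iv and 0.996 in POF. Its natural antagonist Il1rn had 1.75 in ADSC-ovary, 0.30 in ADSC-iv and 0.38 in POF. For Il1rn the treated signal was above background only in ADSC-ovary and its difference of 1.44 came with a WT difference of -0.70 on a spot below background. Il18bp, a soluble inhibitor of the cytokine that raises interferon gamma, had 2.16 in ADSC-ovary, 1.12 in ADSC-iv and 0.36 in POF. Among receptors Il10ra differed by 0.69, and Ifngr1, a chain of the interferon gamma receptor, by 0.21.

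**Figure D2:**
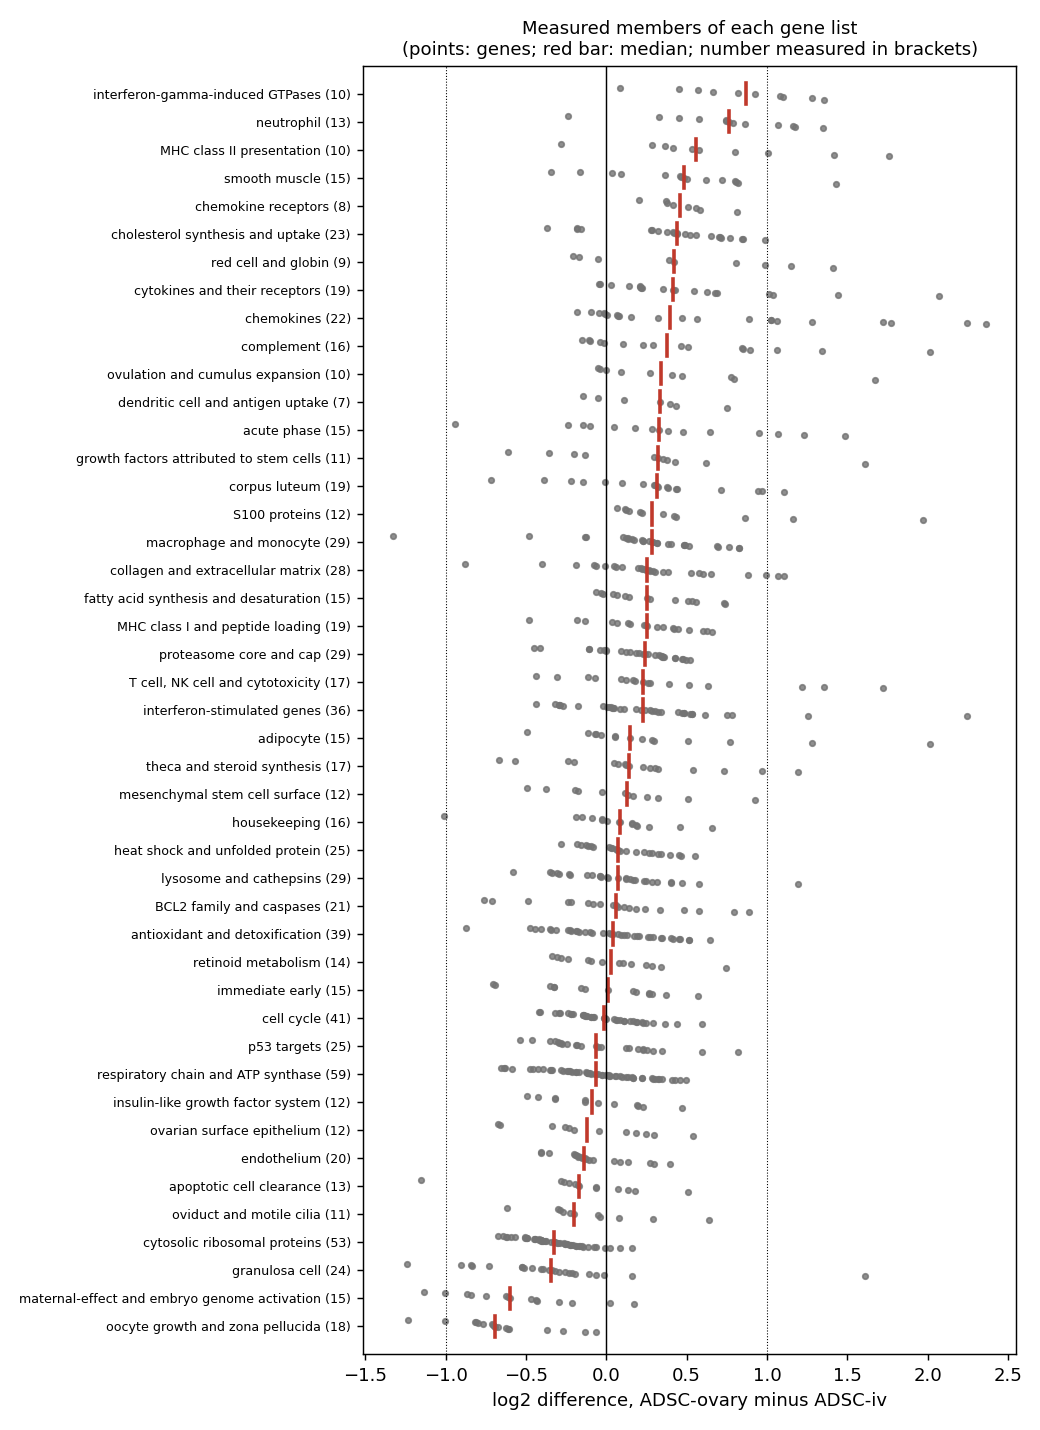
Log2 difference, ADSC-ovary minus ADSC-iv, of every measured gene (points) in 45 gene lists, with the median of each list as a red bar and the number measured in brackets. Dotted lines mark 2-fold. Interferon-gamma-induced GTPases lie at the top (median 0.87) and oocyte genes at the bottom (median -0.70).

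Markers of immune cells were next described type by type, since a whole ovary is a mixture of cells. In such RNA more cells of a type and more RNA per cell cannot be told apart. Neutrophil genes had a median of 0.76 over 13 measured members, with 12 above 0. The 8 with Cy5 above background on both arrays were all above 0 and 4 of them at least 2-fold higher (0.63% of all such genes). The median was 1.21 with plain background subtraction. S100a9, a calcium-binding protein abundant in neutrophils, had a ratio of 3.33 in ADSC-ovary, 2.17 in ADSC-iv and 2.21 in POF. Lcn2, an iron-scavenging granule protein, had 1.40 in ADSC-ovary, 0.33 in ADSC-iv and 0.46 in POF. In both genes ADSC-iv was close to POF. No neutrophil gene was above background in all 4 channels. Of the 4 genes at least 2-fold higher, Mpo differed by 1.35 and Chil3 by 1.17 here. Their signs turned in the authors' processed ratios, to -1.35 and -1.76. Chil3 was also not carried by Cy5, with a treated difference of 0.58 and a WT one of -0.59.

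Macrophage genes were above WT on all 3 arrays, and the difference between the routes was smaller. Their median ratio was 1.39 in ADSC-ovary, 1.16 in ADSC-iv and 0.60 in POF, and the median difference was 0.28, with 25 of 29 above 0. Ms4a6d (0.82), Laptm5 (0.82), the scavenger receptor Msr1 (0.77) and the high-affinity antibody receptor Fcgr1 (0.70) led the list. For Fcgr1 the treated signal differed by 0.35 and WT by -0.35. Gpnmb, a glycoprotein of lipid-laden macrophages, went the other way. Its ratio was 0.33 in ADSC-ovary, 1.66 in ADSC-iv and -0.05 in POF, so ADSC-iv stood apart from both other arrays, with a difference of -1.33. Lyz1 had 1.60 in ADSC-ovary, 2.08 in ADSC-iv and 0.74 in POF, but its WT signal differed by 0.72.

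Genes of cytotoxic lymphocytes had a median of 0.23 over 17 measured members and 0.32 over the 12 with Cy5 above background on both arrays. Of the 12, 3 were at least 2-fold higher (0.63% of all such genes): Gzmb, Klrk1 and Ccl5, which is also on the chemokine list. The median over the cytotoxic list was 0.60 in the authors' processed ratios. Gzmb, a protease of killer cell granules, had a ratio of 2.35 in ADSC-ovary, 0.99 in ADSC-iv and 0.78 in POF, and Klrk1, an activating killer cell receptor, had 2.09 in ADSC-ovary, 0.88 in ADSC-iv and 1.03 in POF. Gzma differed by 0.51, with a treated difference of 0.22 and a WT one of -0.29. The natural killer gene Ncr1 differed by 0.23 and the T cell receptor chain gene Cd3g by 0.27, while Cd8a was lower by direction, at -0.31. Dendritic cell genes had a median of 0.34 over 7, of which only 2 had Cy5 above background on both arrays. B cell and mast cell lists had 4 and 3 measured genes and are given without a median.

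Genes of the complement cascade and the acute phase, whose proteins are made in part by stromal cells and macrophages under cytokine stimulation, mostly lay above 0. C3, the central complement protein, had a ratio of 2.34 in ADSC-ovary, 1.0005 in ADSC-iv and 0.73 in POF. Cfb, of the alternative pathway, had 3.13 in ADSC-ovary, 2.06 in ADSC-iv and 2.02 in POF. The C1q chains, made by macrophages, differed by 0.85 (C1qb), 0.84 (C1qc) and 0.51 (C1qa). The complement median was 0.38, with 11 of 16 above 0. Over the 14 with Cy5 above background on both arrays it was 0.26, with 9 above 0. Serpina3g, a protease inhibitor, had a ratio of 3.41 in ADSC-ovary, 1.93 in ADSC-iv and 2.46 in POF, and Serpina3n had 1.48 in ADSC-ovary, 0.25 in ADSC-iv and 0.82 in POF. Serpina3 genes form a cluster of close copies, and their probes may share signal. Apoa1, a lipoprotein gene on the acute-phase list, ran the other way, with 0.20 in ADSC-ovary, 1.14 in ADSC-iv and -0.03 in POF. All 12 measured genes on the S100 list were above 0, with a median of 0.29. S100g was measured through ADSC-ovary alone, and the 11 with Cy5 above background on both arrays had a median of 0.22. The list includes S100pbp (0.42), whose difference was not carried by Cy5.

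Blood and fat could also enter a dissected ovary, and some of their markers were higher in ADSC-ovary. Of the 9 measured red cell genes 6 were above 0. The list's median ratio to WT was 0.21 in ADSC-ovary, 0.26 in ADSC-iv and 0.53 in POF. The summed background-subtracted Cy5 signal of the list was 60081 in ADSC-ovary against 41962 units in ADSC-iv. Most of it came from Hba-a1 (29743.5 against 21508) and Hbb-b1 (20717.25 against 11668.25). The globin Hbb-b1 had a ratio of 2.25 in ADSC-ovary, 0.84 in ADSC-iv and 1.80 in POF, and Hba-a1 had 1.79 in ADSC-ovary, 0.64 in ADSC-iv and 1.85 in POF. WT differed by -0.56 for Hbb-b1 and -0.68 for Hba-a1, which made the globin differences of 1.41 and 1.15 larger than those of the treated signal alone, 0.85 and 0.47. Alas2, which starts haem synthesis in red cells, differed by 0.81. Among adipocyte genes Car3 had 1.48 in ADSC-ovary, 0.20 in ADSC-iv and -0.36 in POF, and Fabp4, the fatty acid carrier of fat cells, had 1.49 in ADSC-ovary, 0.72 in ADSC-iv and -0.24 in POF. Cfd (adipsin), named for its source in fat, was above background in treated RNA only in ADSC-ovary, 3.98-fold higher by Cy5. Other genes of fat cells lay nearer 0, with 0.22 for Plin1 and 0.06 for Lpl, and the adipocyte median was 0.15 with 10 of 15 above 0. For Pparg, the master regulator of fat cells, no direction can be given, with 0.28 here, -0.22 with median centring and 2 probes of opposite sign. The summed Cy5 signal of the adipocyte list was 28171 units in ADSC-ovary against 23820 in ADSC-iv. The part of blood or fat in the immune differences was not tested.

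**Figure D3:**
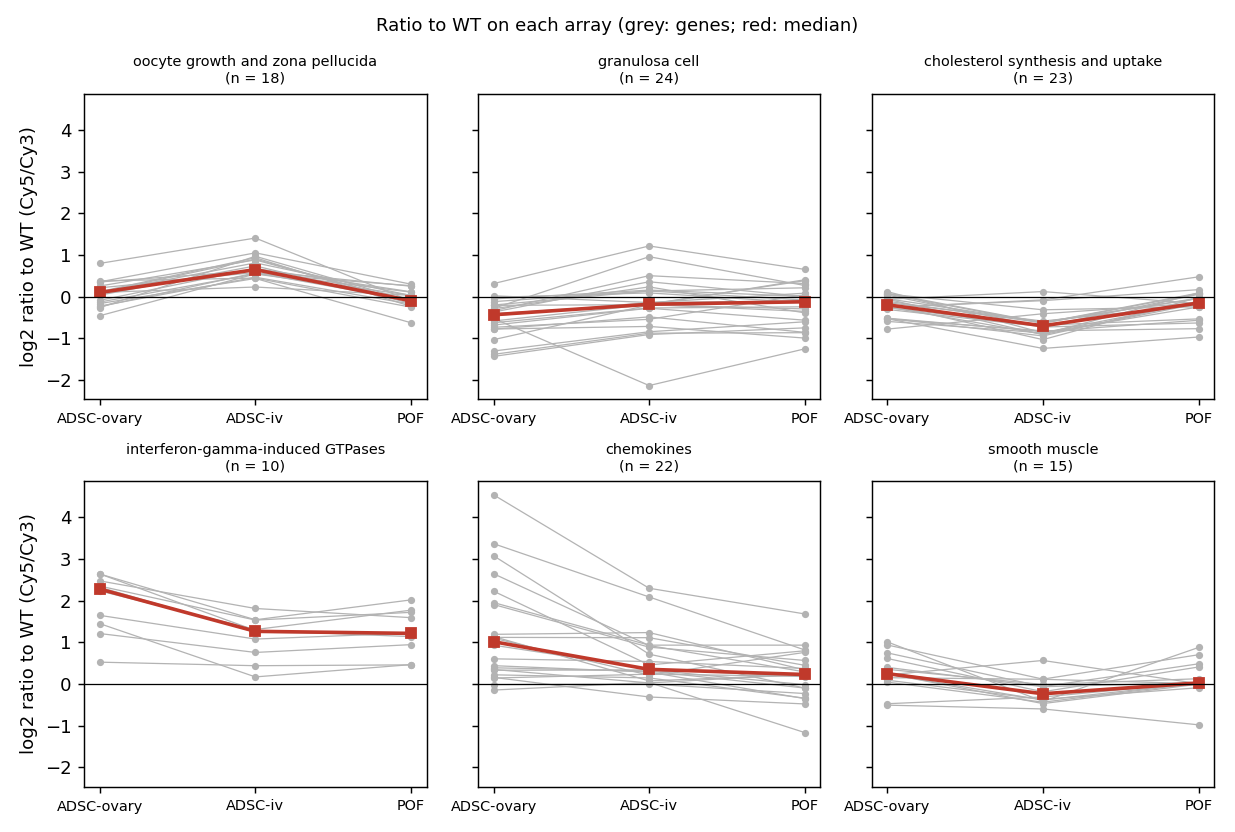
Log2 ratio to WT on the ADSC-ovary, ADSC-iv and POF arrays for the measured members of 6 lists, with a grey line per gene and the list median in red. Oocyte genes peak on the ADSC-iv array (median 0.65) and cholesterol genes dip there (median -0.70), while the GTPases and chemokines are highest on the ADSC-ovary array (medians 2.28 and 1.01).

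Genes of the growing oocyte and its coat were lower in ADSC-ovary than in ADSC-iv. Of 26 listed genes 22 were on the array and 18 were measured, 14 of them with Cy5 above background on both arrays. All 18 lay below 0, with a median of -0.70 against 0.00 for all genes. At least 1.5-fold lower were 14 of the 18 (3.37% of all genes). Kit and Astl, 2 of the 18, were at least 2-fold lower (0.437% of all genes), and Astl had Cy5 above background only in ADSC-iv. The 14 genes with Cy5 above background on both arrays were all below 0, with a median of -0.70. Of them 13 were at least 1.5-fold lower (2.73% of all such genes). The median ratio to WT was 0.10 in ADSC-ovary, 0.65 in ADSC-iv and -0.10 in POF. The ADSC-iv array was thus the one that stood away from WT. The treated signal had a median difference of -0.64 and WT one of 0.05.

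Gdf9, the oocyte's growth factor for granulosa cells, had a ratio of 0.10 in ADSC-ovary, 0.90 in ADSC-iv and -0.14 in POF. The coat genes were alike: Zp2 had -0.24 in ADSC-ovary, 0.57 in ADSC-iv and -0.10 in POF, and Zp3 had -0.13 in ADSC-ovary, 0.54 in ADSC-iv and 0.03 in POF. Zp1 differed by -0.69 and Figla, the transcription factor of the coat genes, by -0.60. Kit, the oocyte's receptor for Kit ligand, had -0.46 in ADSC-ovary, 0.54 in ADSC-iv and 0.26 in POF, a difference of -1.004. Astl, the egg protease that acts on the coat after fertilisation, differed by -1.23, with Cy5 above background only in ADSC-iv. The remaining members ranged from -0.82 (Oas1d) to -0.06.

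Maternal-effect genes, whose products are stored in the egg for the early embryo, went the same way. Their median was -0.60 over 15 measured genes, of which 2 lay above 0, and 8 were at least 1.5-fold lower (3.37% of all genes). Over the 14 with Cy5 above background on both arrays it was -0.54, with 7 at least 1.5-fold lower (2.73% of all such genes). Nlrp14 had a ratio of -0.15 in ADSC-ovary, 0.98 in ADSC-iv and -0.29 in POF. Ooep, of the subcortical maternal complex, had 0.15 in ADSC-ovary, 0.995 in ADSC-iv and -0.32 in POF, and Padi6 had 0.08 in ADSC-ovary, 0.95 in ADSC-iv and 0.24 in POF. The nuclear chaperone Npm2 differed by -0.61, of which the treated signal gave -0.12 and WT 0.49. Widely expressed members of the list were nearer 0, with -0.21 for Trim28 and 0.17 for Zfp36l2. Other oocyte genes outside both lists were Oog1, with 0.29 in ADSC-ovary, 1.29 in ADSC-iv and 0.50 in POF, and Oosp3, with 0.36 in ADSC-ovary, 1.42 in ADSC-iv and 0.40 in POF.

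Granulosa genes, from the cells that enclose the oocyte, were lower in ADSC-ovary by a smaller margin. The median over 24 measured genes was -0.35, with 22 below 0 and 5 at least 1.5-fold lower (3.37% of all genes). Over the 22 with Cy5 above background on both arrays it was also -0.35, with 5 at least 1.5-fold lower (2.73% of all such genes). Amhr2, the receptor for anti-Mullerian hormone, had a ratio of -0.37 in ADSC-ovary, 0.35 in ADSC-iv and 0.00 in POF. The inhibin chain Inha had -1.31 in ADSC-ovary, -0.85 in ADSC-iv and -0.61 in POF, and Inhba had -1.44 in ADSC-ovary, -0.91 in ADSC-iv and -0.75 in POF. These 2 genes were below WT on all 3 arrays and lowest in ADSC-ovary. Cyp19a1 (aromatase, which makes oestrogen) differed by -0.35 and the lineage factor Foxl2 by -0.41. Slc18a2, a vesicular amine transporter, had the lowest value, -1.24. Above 0 were Bex2, at 0.16, and Kitl, the ligand for the Kit receptor of oocytes. The ratio of Kitl was -0.53 in ADSC-ovary, -2.14 in ADSC-iv and -1.26 in POF. Its treated signal was above background only in ADSC-ovary, 3.38-fold higher by Cy5. Its WT signal was above background on both arrays and differed by 0.15.

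Steroid synthesis was read in 3 lists. Cyp17a1, the theca enzyme that makes androgens, had a ratio of -0.12 in ADSC-ovary, -1.31 in ADSC-iv and 0.61 in POF. Star, which brings cholesterol into mitochondria, had 0.29 in ADSC-ovary, -0.68 in ADSC-iv and -0.44 in POF. For Cyp17a1 ADSC-ovary was near WT and ADSC-iv below it, with a difference of 1.19. The other enzymes of the pathway differed less, with 0.30 for Cyp11a1 and 0.12 for Hsd3b1, and Akr1c14 was at -0.67. The theca median was 0.14, with 13 of 17 above 0, and the luteal median was 0.32, with 14 of 19 above 0, where Fabp6 differed by 0.94 and the luteinising hormone receptor gene Lhcgr by 0.32. The ovulation list had a median of 0.34 over 10 measured genes, but 0.05 over the 6 with Cy5 above background on both arrays and -0.033 with only spots of flag 100.

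Cholesterol synthesis and uptake genes, the source of steroid precursors, were higher in ADSC-ovary. The median was 0.44 over 23 genes, all with 4 channels above background, with 19 above 0 and 8 at least 1.5-fold higher (3.46% of all genes). Nsdhl had a ratio of 0.12 in ADSC-ovary, -0.87 in ADSC-iv and -0.14 in POF. Sqle, which oxidises squalene, had -0.19 in ADSC-ovary, -1.04 in ADSC-iv and -0.02 in POF. The list's median ratio to WT was -0.20 in ADSC-ovary, -0.70 in ADSC-iv and -0.16 in POF, so the ADSC-iv array again stood apart. For Fdps, Hsd17b7, Msmo1 and Ebp, part of the difference lay in WT, which differed by -0.43, -0.52, -0.44 and -0.59. Fatty acid desaturation and elongation followed with a median of 0.26 over 15 genes, led by Fads1 (0.74) and Fads2 (0.73), and Fasn was at -0.03.

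In smooth muscle genes the median reached 0.48 and 13 of 15 were positive. The filament protein Des had a ratio of 1.01 in ADSC-ovary, -0.42 in ADSC-iv and 0.88 in POF. Myh11, the smooth muscle myosin, had 0.61 in ADSC-ovary, -0.19 in ADSC-iv and 0.41 in POF, and Actg2 had 0.75 in ADSC-ovary, -0.06 in ADSC-iv and 0.48 in POF. ADSC-ovary and POF were thus close to each other for these genes, and ADSC-iv was lower. For extracellular matrix genes the median was 0.26 and 22 of 28 were positive. Fn1 (fibronectin) had 0.55 in ADSC-ovary, -0.52 in ADSC-iv and 0.33 in POF. Timp1, an inhibitor of matrix proteases, had 0.67 in ADSC-ovary, -0.43 in ADSC-iv and 0.22 in POF, and Spp1 (osteopontin) had 1.08 in ADSC-ovary, 0.20 in ADSC-iv and 0.45 in POF. Mmp12, a macrophage elastase, was lower in direction (-0.88), with Cy5 above background only in ADSC-iv. The oviduct list, for tissue that adjoins the ovary, had a median of -0.20 over 11 genes, with 3 above 0, and its summed Cy5 signal was 4183 in ADSC-ovary against 4841 units in ADSC-iv. Ovgp1, the oviduct's secreted glycoprotein, had a ratio of 0.20 in ADSC-ovary, 0.12 in ADSC-iv and 4.02 in POF.

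Genes associated with the transplanted cells had mixed signs. The surface markers of mesenchymal stem cells had a median of 0.13, with 7 of 12 measured genes above 0. Ly6a, which interferon also induces, differed by 0.92, while Thy1 was at 0.16, Eng at -0.20, Pdgfrb at -0.18 and Pdgfra at -0.37. Growth factors that such cells release had a median of 0.32 over 11 genes, with 7 above 0 and 4 below. Over the 8 with Cy5 above background on both arrays the median was 0.31. The highest value was that of Kitl (1.61), measured through ADSC-ovary alone. Vegfa differed by 0.38 and Fgf7 by 0.62, and Igf1 was at -0.14 and Angpt1 at -0.20. Endothelial genes had a median of -0.14 over 20, with none at 1.5-fold in either direction, and Pecam1 was at 0.40. These genes are also expressed by cells of the ovary, so their RNA cannot be assigned to a donor.

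Several gene groups that chemotherapy could affect lay near 0. The cell cycle list had a median of -0.01 over 41 genes, p53 targets -0.06 over 25, the apoptosis list 0.06 over 21 and antioxidant genes 0.04 over 39. Within them Cdkn1a, the p53-induced cell cycle inhibitor, had a ratio of 1.08 in ADSC-ovary, 0.78 in ADSC-iv and 1.27 in POF. The inflammatory caspase gene Casp1 had 2.10 in ADSC-ovary, 1.21 in ADSC-iv and 1.19 in POF. Respiratory chain genes had a median of -0.07 over 59. Proteasome genes were higher in direction, with a median of 0.24 and 21 of 29 above 0. Genes of cytosolic ribosomal proteins were lower in direction, with a median of -0.32, 3 of 53 above 0 and 5 at least 1.5-fold lower (3.37% of all genes). Their treated signal had a median difference of -0.15 and WT one of 0.13, so nearly as much of that value lay in WT as in treated RNA.

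Among bright single genes outside the immune response, Ly6k and Emb stood highest. Ly6k, a membrane-anchored protein of the Ly6 family, had a ratio of 1.07 in ADSC-ovary, -1.13 in ADSC-iv and 1.03 in POF. Its Cy5 signal was 3317 units in ADSC-ovary against 656 in ADSC-iv, and WT differed by 0.01. Emb (embigin), a partner of lactate transporters, had 0.97 in ADSC-ovary, -0.56 in ADSC-iv and 0.24 in POF, with a WT difference of 0.49. Lower in ADSC-ovary were Eif4h, a translation initiation factor, at -1.38, and Comp, a matrix protein first known from cartilage, at -1.34. Gas6, the ligand of the receptors that clear dying cells, had -1.16 in ADSC-ovary, -0.01 in ADSC-iv and -0.02 in POF, so here ADSC-ovary was the array that stood apart. St3gal4, a sialyltransferase, had -1.05 in ADSC-ovary, 0.10 in ADSC-iv and 0.30 in POF. Serpina3a, Prss23, Kazald1, Derl3, Gpha2 and Ivns1abp lay between -1.29 and -0.99. Of those named for low differences with a dim WT signal, Ptges, which makes prostaglandin E2, was at -1.04, the troponin gene Tnni2 at -0.95 and Rspo2, an enhancer of Wnt signalling, at -0.80.

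**Figure D4:**
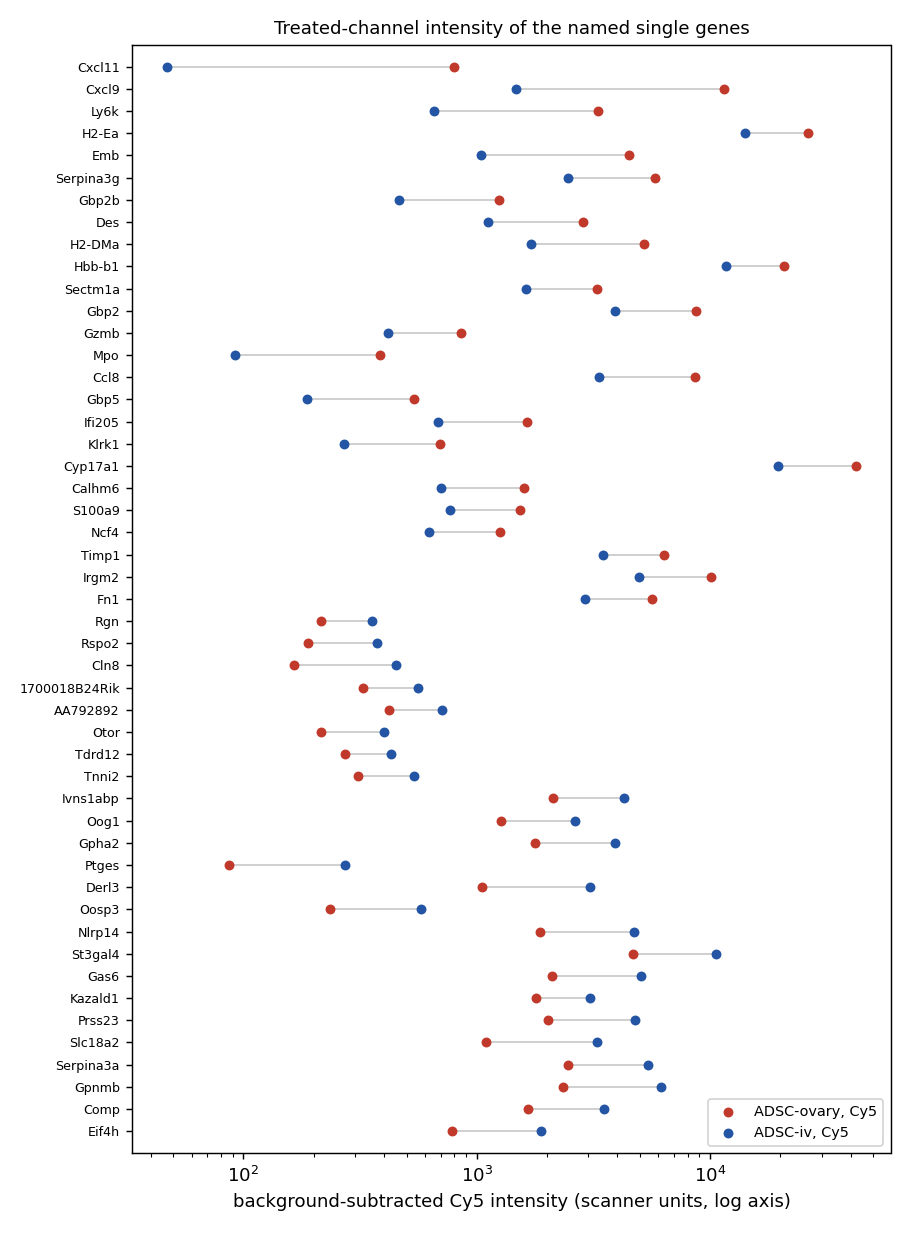
Background-subtracted Cy5 intensity (horizontal log axis, scanner units) of the named single genes, with ADSC-ovary in red and ADSC-iv in blue, ordered by their log2 difference. From Fn1 up to Cxcl11 ADSC-ovary is to the right, and from Rgn down to Eif4h ADSC-iv is.

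Genes above background in treated RNA on only 1 of the arrays numbered 524 for ADSC-ovary and 720 for ADSC-iv. Their Cy5 fold sets the bright group's normalized level against the dim spot's own level. The lowest level above background on that array takes its place where it is higher. For the genes named here it was the dim spot's own level, so the fold is an estimate and not a lower bound. For most of the highest folds the WT signal moved as well. Hsf2bp was 14.6-fold higher in ADSC-ovary by Cy5 alone, but its WT signal differed by 2.82 and the difference of ratios was 1.04. For Dhh, 10.1-fold higher in ADSC-iv by Cy5, WT differed by -2.95 and the difference of ratios was -0.38. WT differed at least 2-fold for 23 of the 524 and 18 of the 720, and by under 0.5 log2 units for 449 and 655. Genes of the last kind, chosen after their values were seen, are given next.

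Among genes with a WT difference under 0.5 log2 units, S100g and Ly6i had the highest Cy5 folds in ADSC-ovary after Ifng and Cfd. They were 3.94-fold for S100g, a vitamin D-dependent calcium-binding protein, and 3.78-fold for Ly6i. Edn2, an endothelin made around ovulation, was 2.82-fold higher. Arhgef2, which activates the GTPase RhoA, was 7.49-fold higher in ADSC-iv, with a ratio of -0.36 in ADSC-ovary, 2.42 in ADSC-iv and 0.12 in POF. Rnase1 was 4.38-fold higher in ADSC-iv and Nanos2, a germ cell RNA-binding protein known from male germ cells, 3.36-fold higher. Cyct, a cytochrome c of the testis, and Dkkl1, a protein of sperm, were 3.00-fold and 2.51-fold higher in ADSC-iv. WT was above background on neither array for Ifng, Cfd, S100g, Ly6i, Edn2, Arhgef2, Cyct and Dkkl1. For these a small WT difference is no check, since both WT spots were dim. WT was above background on both arrays for Rnase1 and only on the ADSC-ovary array for Nanos2. Each of these values rests on 1 probe.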

How the data were processed

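RNA from ovaries of 3 treated groups was hybridised in Cy5 against WT RNA in Cy3, each group on 1 array. The deposited scanner files hold median spot intensity and local background per spot, made with LuxScan 3.0 per the series' design text, neither subtracted nor normalized. The authors' deposited log2 ratios, whose normalization is not stated in the labels or headers, served as an alternative. They correlated with the scanner ratios of bright spots with r of 0.943 (ADSC-ovary) and 0.955 (ADSC-iv), which settled scale and direction.

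Intensities were corrected with normexp (offset 50) and log2 ratios normalized by loess within each array, control spots at weight 0 (limma 3.58.1, R 4.3.3). Single-channel values came from Aquantile over the 3 arrays. Above background means a spot median over the local background by more than 2 of its SDs. Probes were averaged per gene. Of 31920 gene probes, 7528 have no name and were left out. Names were updated through RefSeq genes (GRCm38.p6), with 14166 of 19518 matching a symbol, 3898 a synonym and 1454 kept. Further steps ran in Python 3.11.15 with numpy 2.4.6 and pandas 2.3.3, and the normalization was tested on simulated data. In each array 2 gene probes reached the scanner limit in Cy5. The number of arrays limits the precision.

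Members and all 47 lists were chosen with earlier results of these data known. Some genes are on more than 1 list, among them Ccl5, Cxcl9, S100a9 and Lcn2, so the lists are not independent of each other. The genes named were the 15 highest and 15 lowest differences among the brighter genes with all 4 channels above background. Added to these were 10 and 10 among those with Cy5 above background on both arrays and WT dim on at least 1. Up to 5 per list with Cy5 above background on both arrays followed. The last were 5 Cy5 folds each way for genes with Cy5 above background on only 1 array. The single genes also had all probes of 1 sign and a difference carried by Cy5. Genes outside this rule (Ubd, Cd274 and list members given for their role) were chosen after their values were seen. Some items the rule gives are not reported here. Alternatives changed the background correction, the normalization, the filter on dim probes, the flag, the averaging of probes and the source of the values.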

Additional observations from a re-analysis of the deposited data

Results flagged for a closer look

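Of the 50 single genes examined, 5 had ratios at least 0.5 log2 units from WT in opposite directions on the ADSC-ovary and ADSC-iv arrays. Ly6k was above WT in ADSC-ovary (1.07) and below it in ADSC-iv (-1.13), a difference of 2.20. Emb was above WT in ADSC-ovary (0.97) and below it in ADSC-iv (-0.56), a difference of 1.53. Fn1, which encodes fibronectin, was at 0.55 in ADSC-ovary and -0.52 in ADSC-iv, a difference of 1.07. Serpina3a (-0.55 in ADSC-ovary, 0.75 in ADSC-iv) and Prss23, a serine protease (-0.51 in ADSC-ovary, 0.69 in ADSC-iv), went the other way, with differences of -1.29 and -1.19. With 1 array per group these differences were not tested.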

How the results depend on the processing

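The counts of 81 higher and 46 lower genes became 400 and 347 with plain background subtraction, 156 and 95 with no filter on dim probes, 40 and 25 with all 4 channels above background, 37 and 22 with only spots of flag 100, and 568 and 437 in the authors' processed ratios. With no background correction the lower count was 29, and with Cy5 alone it was 100. Under all settings the median of all genes stayed between -0.025 and 0.013. Of 533 recomputed list medians, 523 moved by less than the SD of the WT difference. That SD, 0.25, is one over single genes and is larger than many list medians, so staying within it is a weak check. The ribosomal protein median of -0.32, for example, was -0.15 with Cy5 alone and stayed within it. The sign turned in 12 values over 9 lists, of which 1, the ovulation list, had a median past that SD. Plain subtraction gave 0.71 for chemokine receptors, 0.79 for dendritic cell and 1.21 for neutrophil genes. No filter gave 0.084 for chemokine receptors. All 4 channels gave 0.0013 for the ovulation list. Spots of flag 100 gave -0.033 for the ovulation list, 0.065 for chemokines and 0.26 for immediate early genes. The authors' ratios gave 0.66 for dendritic cell and 0.60 for cytotoxic lymphocyte genes. The oocyte median ranged from -0.78 to -0.64, the granulosa median from -0.41 to -0.31, the cholesterol median from 0.34 to 0.68 and the GTPase median from 0.78 to 1.08 over 12 alternatives each. Of 2706 values of named genes, 2519 moved by less than that SD. The sign turned in 18 values over 10 genes, of which 6 had a difference at or past that SD. Among the 10 were Chil3 (-1.76) and Mpo (-1.35) in the authors' ratios and Pparg (-0.22 with median centring, -0.55 in the authors' ratios). The cause was not tested. No paired analysis was possible because each group has 1 array, and for the same reason no array could be left out. Keeping only genes carried by Cy5, chosen after seeing the data, left 74 and 46.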

Other observations

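Probes without a gene name numbered 2235 among those measured, and 22 were at least 2-fold higher in ADSC-ovary and 9 at least 2-fold lower. They have only the array's own identifiers here and entered no gene value. A further 336 spots listed as empty were above background in Cy5 on 12 spots of the ADSC-ovary array and 62 of the ADSC-iv array.

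Serpina5, a protease inhibitor of reproductive tissues, had a difference of -1.76, with the WT signal differing by -0.09. Akr1c13, an aldo-keto reductase, had -1.58, with WT differing by -0.31. Apol6 had 1.46, with WT differing by -0.19. These genes fell outside the rule for named genes and were picked after their values were seen. The lysosomal protease gene Ctsk had a ratio of -0.16 in ADSC-ovary, -1.35 in ADSC-iv and 0.19 in POF, and WT gave -0.64 of its difference.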
